A study of Mus musculus with 6 samples.

Results

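The small leucine-rich proteoglycans are secreted matrix proteins built from leucine-rich repeats, and most carry sulfated sugar chains. The 10 genes Dcn, Bgn, Lum, Kera, Fmod, Omd, Ogn, Aspn, Epyc and Prelp were taken by name from the array. The list was chosen with earlier results of these data known. All 10 had a probe of exactly 1 gene symbol, and together they had 18 such probes, of 34885 on the array, and 10 of its 19057 genes. Each gene is represented by its brightest probe, judged by the mean of all 6 arrays, and its further probes are given beside it.

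These proteins bind the surface of collagen fibrils and set fibril width and spacing. Several also hold growth factors of the TGF-beta family in the matrix or signal through cell surface receptors. Class I members carry chondroitin or dermatan sulfate in decorin and biglycan, class II members such as lumican, keratocan and fibromodulin carry keratan sulfate, and class III holds epiphycan and osteoglycin. In the embryonic jaw the family is known from tendon, fascia, perichondrium, early bone and, later, dentin.

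RNA came from whole lower molar tooth germs, 3 libraries, and from oral tissue of the mandible without teeth, 3 libraries, at embryonic day 13.5. The strain was the outbred CD-1 throughout, and the labels name no treatment and no engineered allele. Each library pooled tissue of several mice, and same-numbered libraries of the 2 tissues share embryos of 1 litter, so n = 3 per tissue and the 6 arrays form 3 pairs. At this day the molar is a bud of oral epithelium in condensing mesenchyme, and a whole tooth germ holds both. Expression was read on 1-colour Illumina bead arrays, and all levels are the deposited log2-scale signals, which the authors had made equal in distribution across arrays. Precision is limited by the number of arrays, and levels of different probes cannot be set against each other.

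The labels contradict each other on tissue: titles and descriptions assign tooth germ to one set of 3 libraries, while source names and tissue fields assign it to the other set. Libraries are named here by title, and every sign below turns if the source names are right. Under the titles, the dental mesenchyme gene Msx1 had 12.36 to 12.67 in tooth germ and 10.78 to 11.41 in oral tissue, and the muscle gene Acta1 had 10.54 to 11.13 in tooth germ and 12.27 to 13.04 in oral tissue. Of 9 dental mesenchyme markers 6 were higher and 0 lower in tooth germ, and of 11 skeletal muscle markers 10 were lower and 0 higher.

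Tooth germ and oral tissue differed in 4 of the 10 proteoglycan genes, 1 higher and 3 lower in tooth germ. Calls rest on limma with Benjamini-Hochberg adjustment over all 19057 genes and a threshold of 0.05, which called 5.81% of them, 2.39% higher and 3.42% lower. Prelp was higher in tooth germ, Kera, Ogn and Dcn were lower, and Bgn, Lum, Fmod, Omd, Aspn and Epyc were not called. The calls came from every class, with 1 of 3 class I members, 2 of 5 class II members and 1 of 2 class III members. The 3 values of each tissue did not overlap for the same 4 genes, against 23.1% of all genes. Probes of low signal are seldom called: among the 12150 genes with a mean above 7.01, the median of all values, 8.85% were called, and 8 members were in that set. The median difference of the 10 members was 0.0090 on the log2 scale, beside 0.0026 over all genes, so the members shared no direction.

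**Figure D1:**
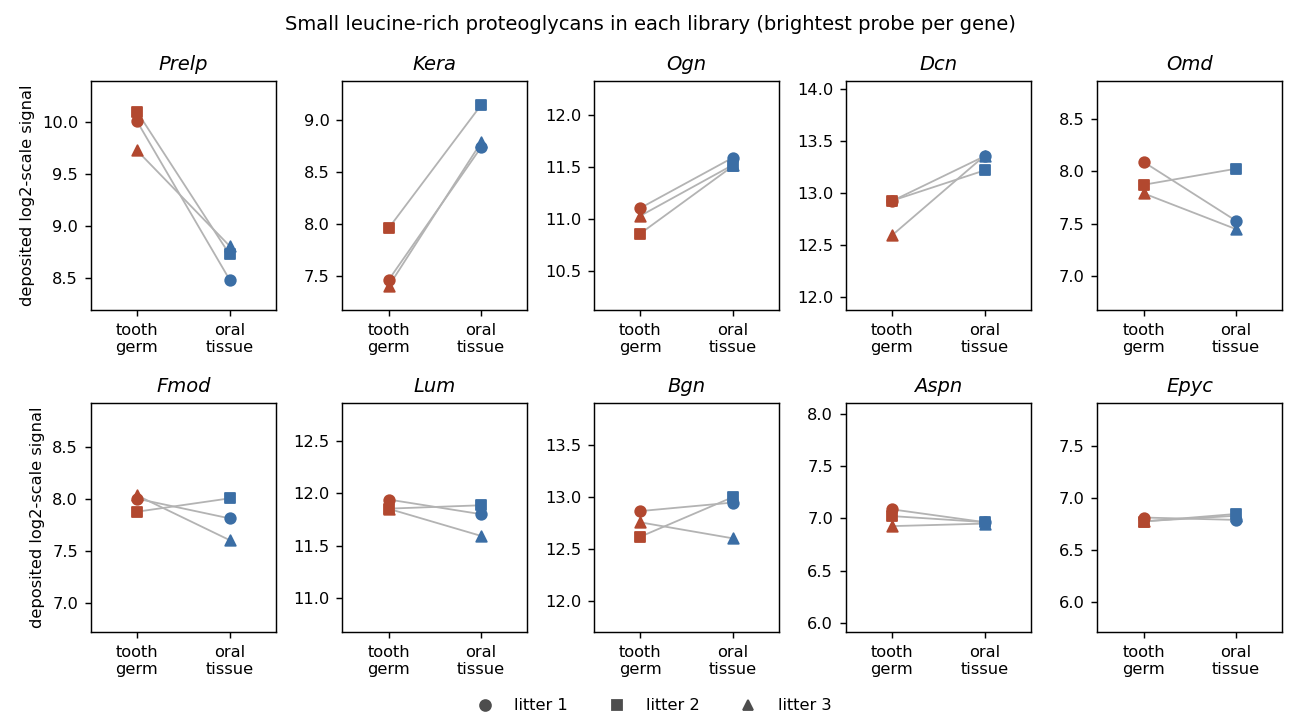
Deposited log2-scale signal of the 10 genes in each library, tooth germ at the left and oral tissue at the right, with a grey line joining the libraries of 1 litter and every panel spanning the same range. Prelp is higher in the 3 tooth germ libraries, Kera, Ogn and Dcn are lower in them, and the tissues overlap for the other 6 genes.

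Prelp encodes prolargin, a class II member with a basic, heparin-binding start that can tie basement membranes to collagen. It had 10.005, 10.097 and 9.725 in tooth germ, against 8.48, 8.73 and 8.81 in oral tissue. Each tooth germ library lay above all oral tissue libraries. The means were 9.94 ± 0.19 in tooth germ and 8.67 ± 0.17 in oral tissue (SD, n = 3 each), a log2 difference of 1.27 (SE 0.11, limma adjusted p = 4.6e-05) or 2.41-fold. This was the 14th largest rise among the 19057 genes, and the pairs gave 1.52, 1.37 and 0.92.

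Kera encodes keratocan, a keratan sulfate carrier best known from the cornea and also present in tendon. It had 7.46, 7.96 and 7.40 in tooth germ, against 8.74, 9.14 and 8.78 in oral tissue. Litter 2 was highest in both tissues, and no tooth germ library reached an oral tissue library. The log2 difference was -1.28 (SE 0.14, limma adjusted p = 2.4e-04), a 2.43-fold higher signal in oral tissue. The 3 pairs gave -1.27, -1.18 and -1.38, a narrow range beside the spread of litters within a tissue, and with litter as a block the SE was 0.068. Kera had the 51st largest fall of all genes.

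Ogn encodes osteoglycin, also called mimecan, a class III member of connective tissue and bone matrix. It had 11.10, 10.86 and 11.03 in tooth germ, against 11.59, 11.51 and 11.52 in oral tissue. The oral tissue libraries lay close together, above all tooth germ libraries. The log2 difference was -0.54 (SE 0.083, limma adjusted p = 0.0019), or 1.45-fold higher in oral tissue. Both dimmer Ogn probes were lower in tooth germ in every library, by -0.24 (adjusted p = 0.027 over 34885 probes, of which 4.18% were called) and -0.18 (adjusted p = 0.138). With the mean of all Ogn probes the difference was -0.32 (limma adjusted p = 0.011).

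Dcn encodes decorin, which coats collagen fibrils and binds TGF-beta. It had 12.92, 12.92 and 12.59 in tooth germ, against 13.35, 13.22 and 13.36 in oral tissue. Tooth germ library 3 was the lowest of all and widened the spread of its tissue. The log2 difference was -0.50 (SE 0.091, limma adjusted p = 0.0064), or 1.41-fold higher in oral tissue. Its second probe had 10.92, 10.99 and 10.43 in tooth germ, against 11.58, 11.54 and 11.62 in oral tissue, a difference of -0.80 (limma adjusted p = 0.0024). The remaining probes, dimmer at means of 8.10 and 7.52 over 6 arrays, differed by -0.33 and -0.29 and were not called (limma adjusted p = 0.092 and 0.059). None of the 4 Dcn probes had overlapping tissues, and all were lower in tooth germ. Of the 8 further probes of the members, 2 were called, or 4 with litter as a block.

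The stretches just before the transcript start of 3 of the 4 called genes are shown because Prelp moved against Kera and Ogn. They are the 250 bases before the start from RefSeq on GRCm38.p6, where 8 of the 10 members had such a window to use; windows of Dcn and Lum were not used here. Each reads 5′ to 3′ on the gene's own strand, Prelp from chr1:133921402-133921651 on the minus strand, Kera from chr10:97606955-97607204 on the plus strand and Ogn from chr13:49607765-49608014 on the plus strand. Capitals mark matches, on either strand, to the TATA box TATAAA and to the E-box CANNTG, a motif that basic helix-loop-helix factors bind.
Prelp: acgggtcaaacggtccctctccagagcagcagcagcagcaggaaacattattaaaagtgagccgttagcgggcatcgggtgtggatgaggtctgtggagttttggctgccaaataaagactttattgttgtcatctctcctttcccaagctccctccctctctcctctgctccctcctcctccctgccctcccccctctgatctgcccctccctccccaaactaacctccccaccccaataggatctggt
Kera: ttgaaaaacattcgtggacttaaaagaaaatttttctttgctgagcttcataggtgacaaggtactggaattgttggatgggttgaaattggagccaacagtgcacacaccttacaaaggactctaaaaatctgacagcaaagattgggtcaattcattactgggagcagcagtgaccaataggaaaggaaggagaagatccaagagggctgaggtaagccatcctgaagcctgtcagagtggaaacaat
Ogn: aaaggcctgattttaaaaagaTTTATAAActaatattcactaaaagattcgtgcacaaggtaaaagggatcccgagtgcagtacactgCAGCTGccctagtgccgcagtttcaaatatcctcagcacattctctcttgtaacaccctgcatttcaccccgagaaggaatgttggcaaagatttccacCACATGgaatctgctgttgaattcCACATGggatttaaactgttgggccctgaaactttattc

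Ogn held 3 E-box matches, which began at positions -162, -63 and -39 from the start, while Prelp and Kera held none. An E-box stood in 66.2% of all 32851 windows of this length. Ogn also held TATAAA and its reverse complement, which overlap each other at positions -229 and -227, and 12.4% of windows had such a match. The AP-1 letters TGANTCA, found in 6.75% of windows, matched in none of the 3. The SMAD letters CAGAC, found in 42.2%, matched only in Prelp among the 3, at position -161. Members that were not called held matches too. E-boxes stood in Bgn, Fmod, Aspn and part of the Epyc windows, TATAAA in Aspn and CAGAC in Fmod, while Omd held none of these. A match describes the letters and not binding.

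The 6 genes that were not called differ in how far the data bound them. Bgn encodes biglycan, the close relative of decorin. It had 12.86, 12.62 and 12.75 in tooth germ, against 12.94, 13.00 and 12.60 in oral tissue, with both ends of the range in oral tissue. The difference was -0.10, with a 95% interval of -0.33 to 0.12 (limma adjusted p = 0.695). Lum, which encodes lumican, had 11.94, 11.85 and 11.85 in tooth germ, against 11.80, 11.89 and 11.59 in oral tissue. The tissues overlapped, and its interval ran from -0.06 to 0.31 (difference 0.12, limma adjusted p = 0.529). A second Lum probe pointed the other way, at -0.12 (limma adjusted p = 0.776). A difference as large as that of Kera or Prelp lay outside the intervals of Bgn and Lum at their brightest probes.

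Fmod encodes fibromodulin, a regulator of collagen fibril maturation in tendon. It had 8.004, 7.878 and 8.035 in tooth germ, against 7.81, 8.01 and 7.61 in oral tissue, a difference of 0.16 (interval -0.05 to 0.37, limma adjusted p = 0.441). Its other probe differed by -0.0037. Omd encodes osteomodulin, a keratan sulfate protein of osteoblasts and odontoblasts. It had 8.09, 7.87 and 7.79 in tooth germ, against 7.53, 8.03 and 7.45 in oral tissue. Oral tissue library 2 alone reached the tooth germ values. The difference was 0.25 (interval -0.04 to 0.55, limma adjusted p = 0.384), and without oral tissue library 2 it was 0.43 (limma adjusted p = 0.021). Omd was called in only 2 of 20 alternatives, both of which left out that library. With litter as a block the interval of Omd ran from 0.017 to 0.486, and Omd was still not called (limma adjusted p = 0.206).

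Aspn encodes asporin, a class I member of periosteum and periodontal ligament. Epyc encodes epiphycan, a protein of growth plate cartilage. Aspn had 7.09, 7.02 and 6.93 in tooth germ, against 6.96, 6.96 and 6.95 in oral tissue. Epyc had 6.81, 6.77 and 6.77 in tooth germ, against 6.79, 6.84 and 6.83 in oral tissue. Their means over 6 arrays, 6.99 and 6.80, lie below the median of all values, where calls were fewer, and neither was called (limma adjusted p = 0.593 and 0.555). Their 95% intervals ran from -0.04 to 0.14 for Aspn and from -0.09 to 0.02 for Epyc, on a scale that may understate differences of dim genes. Of 10 cartilage markers 1 was called, Matn3, which encodes a matrilin and differed by 0.13 (limma adjusted p = 0.022). No cartilage marker was called in 11 of 21 alternatives, among them those without tooth germ library 1 or 3, without oral tissue library 1 or 2, and without any 1 of the litters.

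**Figure D2:**
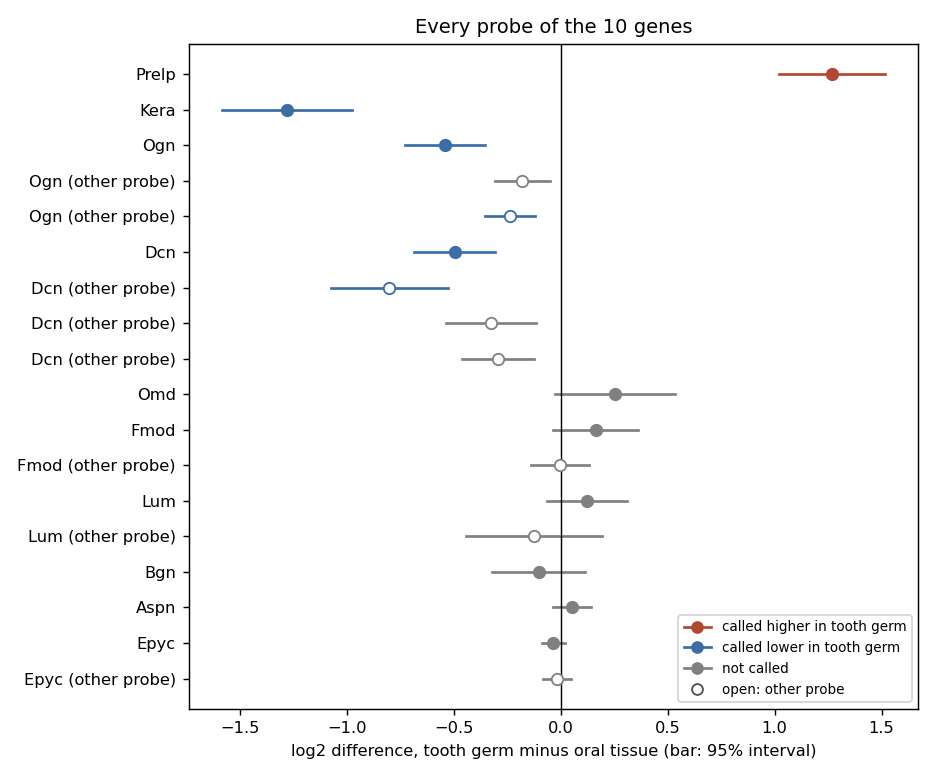
Log2 difference, tooth germ minus oral tissue, of all 18 probes with the 95% interval of each from limma over all probes; filled points are the brightest probe of a gene and open points its other probes. All 4 Dcn and 3 Ogn probes lie below 0, Prelp stands alone above 1, and the probes of Lum lie on opposite sides of 0 with intervals that include it.

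At the brightest probes, litter 2 differed in sign from litters 1 and 3 in 3 of the 6 genes that were not called. The pairs of litters 1, 2 and 3 gave 0.57, -0.15 and 0.34 for Omd. They gave 0.19, -0.13 and 0.43 for Fmod, and 0.14, -0.032 and 0.26 for Lum. In each of these 3 genes the pair of litter 2 alone had the lower signal in tooth germ at the brightest probe. The other probes of Lum and Fmod did not share this pattern. Pairs of litters 1, 2 and 3 gave -0.031, 0.049 and -0.39 for that of Lum, and 0.14, -0.13 and -0.021 for that of Fmod. By brightest probe, the other 3 genes differed from this as well. Bgn and Aspn had litter 3 as the odd pair, and Epyc had litter 1. Bone markers also set litter 2 apart. The mean of 8 osteoblast and bone matrix markers was 9.58, 8.99 and 9.50 in tooth germ, against 9.15, 9.68 and 9.02 in oral tissue, lowest in tooth germ library 2 and highest in oral tissue library 2. At their brightest probes, Bgn, Fmod and the dim Epyc also had their lowest tooth germ value and their highest oral tissue value in library 2. Omd, Lum and the dim Aspn were highest of oral tissue in library 2 but lowest of tooth germ in library 3, narrowly for Lum. Ibsp, the bone sialoprotein gene, named after its values were seen, had 12.70, 10.88 and 12.96 in tooth germ, against 12.13, 13.35 and 11.62 in oral tissue. By limma 0 of the 8 markers were called (1 had an unadjusted p under 0.05), while 3 were called without litter 2 and 1 without oral tissue library 2. The tissue field describes the tissue without teeth as free of bone as well. The part of bone in these differences was not tested. The 4 called genes kept their calls without oral tissue library 2 and without litter 2.

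The members lie in 4 places on the genome, and 3 of them hold runs of adjacent members. In the order of protein-coding genes in RefSeq, Dcn, Lum, Kera and Epyc follow each other on chromosome 10, Aspn, Omd and Ogn on chromosome 13, and Prelp and Fmod on chromosome 1, while Bgn stands alone on X. In none of these runs was every member called. On chromosome 10, Dcn and Kera were lower in tooth germ, and Lum, which lies between them, was not called. On chromosome 13 Ogn was called and Aspn and Omd were not, and on chromosome 1 Prelp was called and Fmod was not. The member-to-member ratio on each array was compared between tissues for all 6 adjacent pairs, with an exact two-sided permutation test whose smallest p with 3 against 3 is 0.10. The test leaves out the litter pairing. Each value equals the first gene's difference minus the second's, so it restates differences given above, and some pairs share a member. The log2 ratio of Prelp to Fmod was higher in tooth germ by 1.11, that of Lum to Kera by 1.40 and that of Omd to Ogn by 0.79. The log2 ratio of Dcn to Lum was lower in tooth germ, with a difference of -0.62. The ratio of Kera to Epyc, at -1.25, adds little to the difference of Kera itself, since Epyc was dim and nearly level. For these 5 pairs the tissues did not overlap and p was 0.10, or 0.12 after Benjamini-Hochberg adjustment over the 6, which misses the threshold as this design must. The pair of Aspn and Omd overlapped (difference -0.20, exact p = 0.40).

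Of the 16 genes that flank these places, the nearest 2 with a probe on each side, 1 was higher and 15 were not called, a share close to the 5.81% of all genes. That gene was Btg1, an inhibitor of cell division on the Dcn side, at 0.35 (SE 0.070, limma adjusted p = 0.011). The differences of the 16 ran from -0.16 to 0.35. Optc, which encodes opticin, a related protein next to Prelp, had 6.90, 6.83 and 6.84 in tooth germ, against 6.96, 6.90 and 6.95 in oral tissue, all below the median of all values. Ecm2, a leucine-rich repeat gene next to Aspn, was also dim and differed by -0.0078.

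**Figure D3:**
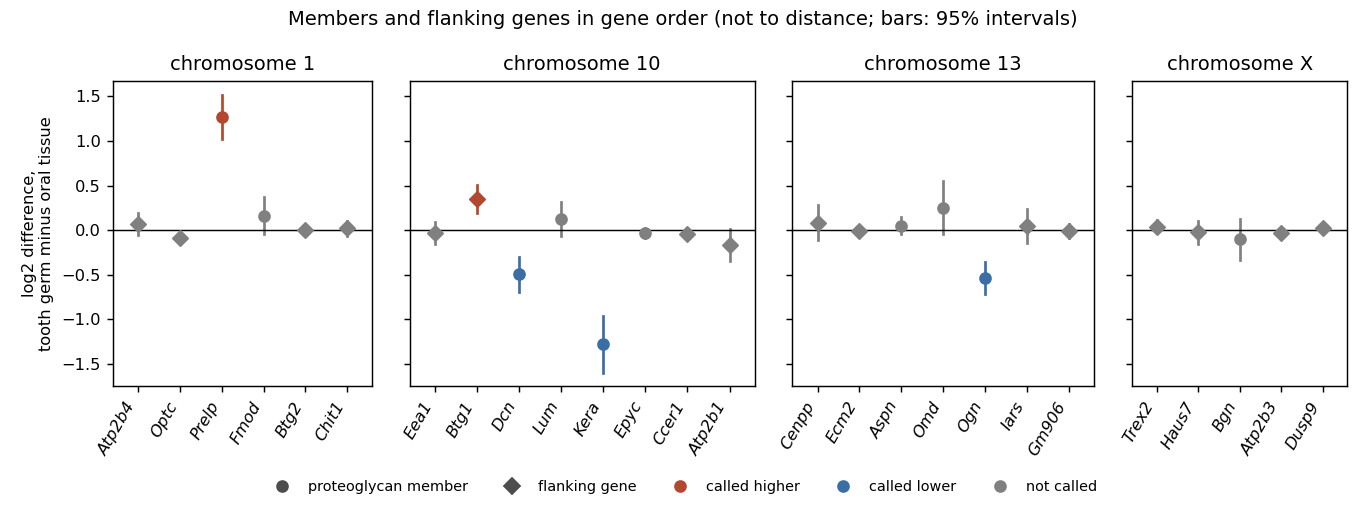
Log2 difference, tooth germ minus oral tissue, with 95% intervals, of members (circles) and flanking genes (diamonds) in gene order along the 4 chromosomes, without distances. Prelp at 1.27 is the neighbour of Fmod at 0.16, and Lum at 0.12 stands between Dcn at -0.50 and Kera at -1.28.

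Among the genes that build the sugar chains, 1 rose for keratan sulfate and 1 for chondroitin and dermatan sulfate. Counts in these and the following lists stand beside 5.81% of all genes called, 2.39% higher and 3.42% lower. Of 7 keratan sulfate synthesis genes 1 rose and 6 were not called (median difference -0.0092). That gene was Chst2, a sulfotransferase that acts on N-acetylglucosamine. It had 10.25, 10.59 and 10.14 in tooth germ, against 9.07, 9.16 and 9.35 in oral tissue, a difference of 1.13 (SE 0.12, limma adjusted p = 1.3e-04). None of the keratan sulfate carriers Lum, Kera, Fmod, Omd and Ogn was called higher: 2 were lower and 3 were not called. Those 3, Lum, Fmod and Omd, differed by 0.12, 0.16 and 0.25 at their brightest probes. Of 21 chondroitin and dermatan sulfate synthesis genes 1 rose and 20 were not called (median 0.0046), and 5 had an unadjusted p under 0.05. Chst15, which adds a second sulfate to chondroitin, was higher by 0.50 (SE 0.098, limma adjusted p = 0.00999). The called count of this list was 2 with litter as a block, 3 without the mean-variance trend, and 0 without litter 1 or without litter 3.

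Collagens to which these proteins bind were lower in tooth germ where they were called. Of 12 fibril-forming, fibril-associated and type VI collagen genes 4 fell, 0 rose and 8 were not called. Their median difference was -0.38, beside 0.0026 over all genes. Col14a1, a fibril-associated collagen, stood at 7.87 ± 0.035 in tooth germ and 8.85 ± 0.17 in oral tissue (SD, n = 3 each), a difference of -0.97 (limma adjusted p = 5.5e-05). The collagen VI chains Col6a1 and Col6a2 fell by 0.61 and 0.54 (limma adjusted p = 0.0015 and 0.0027), and the fibril regulator Col5a1 fell by 0.43 (limma adjusted p = 0.015). The main fibril chain genes Col1a1, Col1a2 and Col3a1, named after their values were seen, were not called, at -0.34, -0.45 and -0.66 (limma adjusted p = 0.405, 0.105 and 0.0745). Of 17 genes for collagen folding, trimming and crosslinking 2 fell and 15 were not called. Lox, which crosslinks collagen and elastin, fell by 1.05 (SE 0.17, limma adjusted p = 0.0027), and Plod2, a collagen lysyl hydroxylase, fell by 0.45 (limma adjusted p = 0.015). The list had 1 called gene without tooth germ library 2 or 3, without oral tissue library 2, and without litter 2 or 3.

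None of 8 genes for proteases that cleave these proteoglycans was called by limma, and 3 had an unadjusted p under 0.05. With litter as a block 2 of the 8 were called, and 1 was called without tooth germ library 2 or without litter 2. Mmp13, a collagenase of bone and cartilage, was at 0.29 and Bmp1, which trims procollagen and probiglycan, at -0.28 (limma adjusted p = 0.098 and 0.16). Of 19 growth factor, receptor and matrix partners 1 rose, 3 fell and 15 were not called (median -0.021). Ccn2, a matricellular gene that responds to TGF-beta, rose by 0.68 (SE 0.12, limma adjusted p = 0.0042). The elastin gene Eln fell by 0.84, the ligand gene Tgfb2 by 0.69 and the fibronectin gene Fn1 by 0.51 (limma adjusted p = 0.0019, 0.0061 and 0.038). With litter as a block 8 partners were called in place of 4, and 2 without litter 3.

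Other proteoglycans gave 3 rises and 0 falls among 20 genes, with 17 not called and a median of 0.012. The testican genes Spock1 and Spock2 rose by 0.60 and 0.34, and the syndecan gene Sdc2 rose by 0.54 (limma adjusted p = 6.0e-04, 0.011 and 0.0042). With litter as a block 5 of the 20 were called, and 1 without litter 1. Of the further leucine-rich repeat relatives, 0 of 6 measured genes were called by limma and 1, Optc, had an unadjusted p under 0.05. Means of 5 of those 6 lay below the median of all values, so the result speaks of dim probes.

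**Figure D4:**
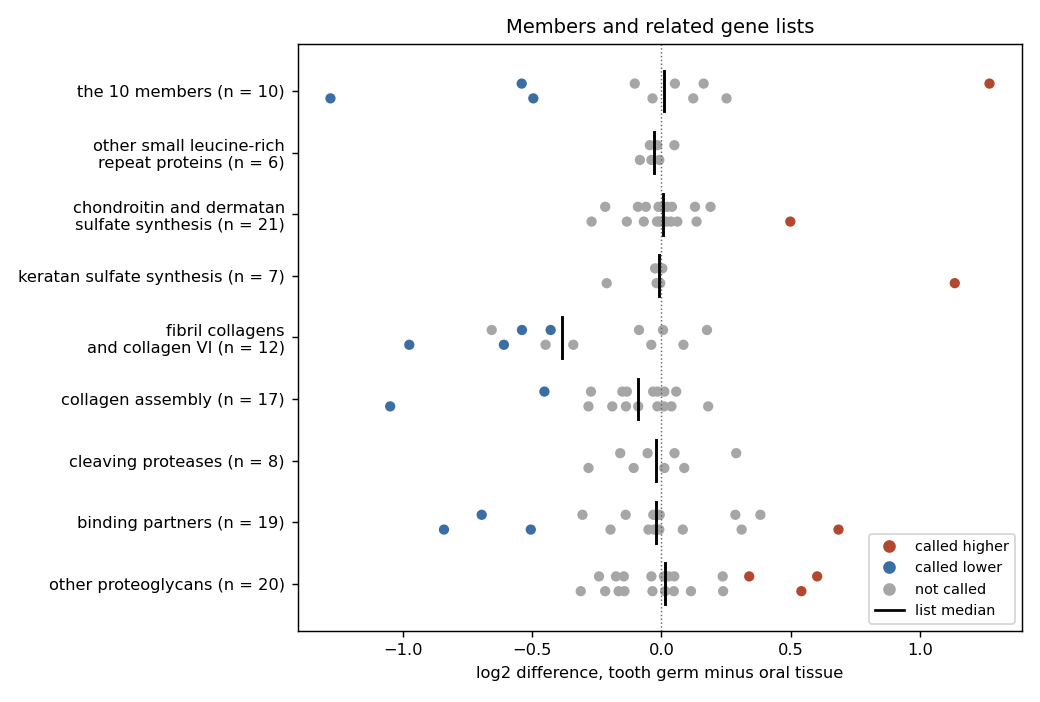
Log2 difference, tooth germ minus oral tissue, of each gene (points, coloured by call) in the members and 8 related lists, with the list median as a black line; vertical offsets only separate points. The members spread from -1.28 to 1.27 around a median of 0.0090, Chst2 stands alone at 1.13 in its list, and the collagen list has its median at -0.38.

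Markers of other cells moved between the tissues beside these genes. In bulk tissue, fewer cells of a type and less RNA per cell cannot be told apart. The mean of 11 skeletal muscle markers was 8.99 to 9.19 in tooth germ and 10.43 to 11.05 in oral tissue. Oral tissue library 2, the lowest of its tissue in muscle, was the highest in Kera. It was the lowest of its tissue in Dcn and, narrowly, in Ogn. Of 13 tendon and connective tissue markers 4 fell, 1 rose and 8 were not called, and their mean was 9.13 to 9.20 in tooth germ and 9.37 to 9.48 in oral tissue. Col14a1, already counted among the collagens, was 1 of the 4. Dpt, the dermatopontin gene of skin and fascia, had 7.63, 7.80 and 7.53 in tooth germ, against 9.16, 9.04 and 8.64 in oral tissue (difference -1.30, limma adjusted p = 6.7e-05). Tcf7l2 and Osr1, transcription factors of muscle connective tissue, fell by 0.71 and 0.63, while Prrx1, a limb and jaw mesenchyme factor, rose by 0.75 (limma adjusted p = 0.0014, 0.0067 and 0.0036). The defining tendon genes were looked up whatever their call: the factor Scx was at -0.37 (limma adjusted p = 0.101), and the tendon markers Tnmd and Thbs4 had values of 6.84 to 6.98, below the median of all values, in every library. Mkx, another tendon factor, was at 0.15 and higher in tooth germ in all 3 pairs, and the tenascin gene Tnc was at 0.34, neither called (limma adjusted p = 0.502 and 0.249).

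Other marker lists moved in both directions. Of 8 pericyte and smooth muscle markers 1 rose and 3 fell, among them Rgs5 at 1.12, Des at -1.69 and Acta2 at -1.49. Des was also counted among the skeletal muscle markers. Of 11 epithelial markers 7 rose and 2 fell, led by Krt17 at 2.05 and Trp63 at 1.01. Of 7 macrophage markers 6 fell, of 7 nerve markers 4 fell, and of 8 endothelial markers 1 fell. Leaving out any 1 library other than oral tissue library 2 brought the macrophage count to 2 or 3. The endothelial call was lost without any 1 library other than oral tissue library 1, and without any 1 litter, while 2 endothelial markers were called with litter as a block. Without litter 1 the epithelial markers called numbered 5 in place of 9. The part of any of these cell types in the proteoglycan differences was not tested.

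The genes whose 6 values most resembled those of Prelp and Kera were sought among 7117 brighter genes, by the root mean square distance after subtracting each gene's mean. The 6 arrays fall into the 2 tissues, so a small distance first of all means a like difference between them. Nearest to Prelp came Cadps2, a vesicle release gene, at 0.047, then Itgbl1, a secreted integrin-like gene, at 0.096, and Chst2 at 0.11 on the log2 scale. Cadps2 had 9.86, 9.84 and 9.48 in tooth germ, against 8.20, 8.45 and 8.57 in oral tissue, with library 3 lowest in tooth germ and highest in oral tissue as for Prelp. Nearest to Kera came Meox2, a homeobox gene of muscle precursors and mesenchyme, at 0.095, then Avpr1a, a vasopressin receptor gene, at 0.16, and Dpt at 0.21. Meox2 had 8.87, 9.25 and 8.89 in tooth germ, against 10.15, 10.35 and 10.23 in oral tissue. Litter 2 was highest in both tissues, as for Kera.

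**Figure D5:**
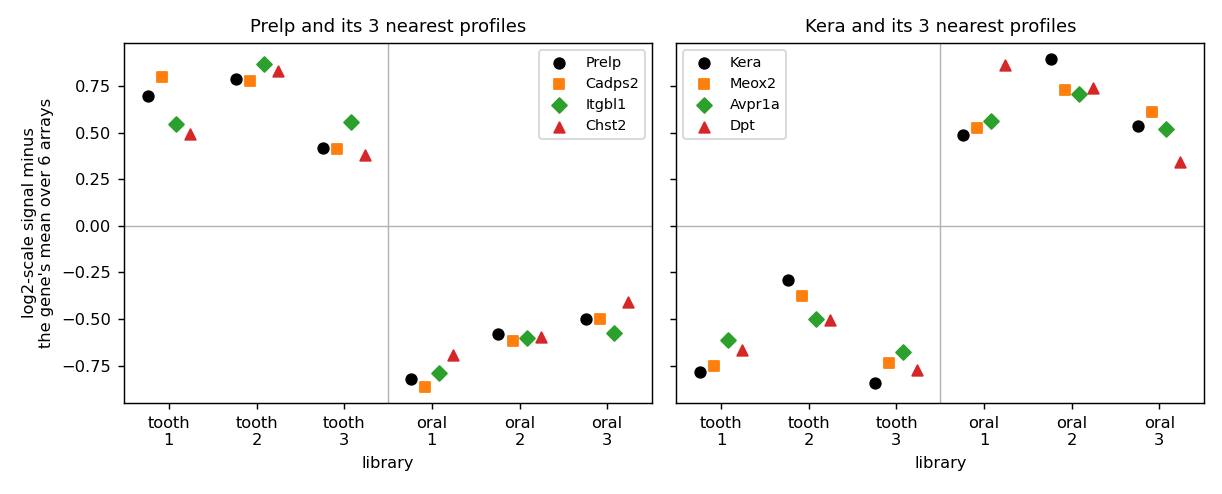
Log2-scale signal minus the gene's own mean over 6 arrays, by library, for Prelp (left) and Kera (right), each with its 3 nearest genes. Points of Cadps2 follow those of Prelp within a root mean square distance of 0.047, and Meox2 follows Kera within 0.095.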

How the data were processed

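The 6 libraries were measured on 1-colour (Cy3) Illumina arrays of 45281 probes. The values used were the deposited log2-scale signals, made by the authors with lumi 2.8.0 per the submitters' processing notes. Transformation and background correction are not given in the sources used here, so the scale may be a variance-stabilised one that understates folds of dim genes. Sorted columns differed by at most 0.000827, hence the table was already quantile normalized and was used as it stood. Detection values were not used here.

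Probes were named from the platform annotation: 34885 had 1 symbol, 18 several and 10378 none. All 18 member probes matched RefSeq symbols of GRCm38.p6 by Entrez identifier. The brightest probe of each of 19057 genes was fitted with limma 3.58.1 in R 4.3.3 (lmFit, eBayes with a mean-variance trend, 4 residual degrees of freedom), tooth germ minus oral tissue, with Benjamini-Hochberg adjustment over all genes. All probes with 1 symbol were fitted likewise. Replicates are biological per the labels. Same-numbered libraries share a litter, and their deviations from tissue means correlated at 0.413, 0.233 and 0.266 over 9528 genes. The fit had no litter block, and the block is an alternative. Motifs were searched with Python 3.11.15, and the exact test used SciPy 1.17.1.

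The members and lists were chosen with earlier results of these data known. Genes named were all members, up to 4 called genes of a list by size (where none was called, up to 2 by smallest p), the 2 largest differences of marker lists where shown, flanking genes, nearest profiles and check genes; names outside this rule are marked in the text. In simulated data for this comparison, with 19057 genes, the test recovered 47 of 67 changes of 0.5, 64 of 67 of 1 and 66 of 66 of 2 (log2), with 4 false calls.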

Additional observations from a re-analysis of the deposited data

How the results depend on the processing

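The 4 called members kept direction and call in each of 20 alternatives: litter as a fixed or random block, repeated normalization, centring, removal of dim genes, a pseudocount, the mean of all probes, all probes tested, 3 variance or weight settings, and each library or litter left out. Their largest adjusted p was 0.0451 for Dcn, 0.0106 for Kera, 0.0223 for Ogn and 0.0033 for Prelp. At an adjusted p under 0.01 all 4 also stayed called. Repeated normalization and centring had almost nothing to change in a table already quantile normalized, and each called 1107 genes as the main fit did. Omd was called as well without oral tissue library 2 (0.43) and without litter 2 (0.45, adjusted p = 0.0445). Bgn turned to 0.036 without litter 2 and Lum to -0.00075 with the mean of all probes, neither called. The replicate block by litter gave 1693 called genes in place of 1107 and 4 of the members' 8 other probes in place of 2, and changed no call of a member. Called genes numbered 549 without litter 1, 668 without litter 3, 601 at an adjusted p under 0.01, and 734 to 1025 with 1 library left out, 734 without tooth germ library 2. Of 378 list counts over the alternatives, 318 were within 1.5 times the reported one, 43 were lower and 17 higher. The 2 called collagen assembly genes became 1 to 3. Lists whose count moved further than that are named with it in the text above. Low signal limits Aspn and Epyc.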
